A study of Rattus norvegicus with 6 samples.

Results

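The genes described here are the receptors through which hormones and nerves drive pancreatic secretion and the channels, pump and sensor that handle calcium inside the acinar cell. They are 10 genes chosen by name, Cckar, Chrm1, Chrm3, Sctr, Itpr1, Itpr2, Itpr3, Atp2a2, Orai1 and Stim1, and all 10 were found among the 19780 gene symbols of the table. They were read in bulk RNA sequencing of pancreas from wild type male Sprague-Dawley rats aged 8 weeks, an outbred strain, with 3 samples of acute pancreatitis (AP) and 3 controls. AP was induced by intraperitoneal L-arginine, an amino acid that injures the exocrine pancreas when given in excess, and controls received saline. The sample labels give 5 mg/kg and 36 h, whereas the text on the study's design speaks of 48 h after L-arginine at 2.5 g/kg, injected 2 times, and which of the regimens applied is not settled by either source. The question addressed is how transcripts of this signalling chain differ between AP and control pancreas.

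In the acinar cell, cholecystokinin acts on the receptor encoded by Cckar and acetylcholine on muscarinic receptors, and both couple through Gq proteins to phospholipase C. The inositol trisphosphate (IP3) that this enzyme makes opens IP3 receptors on the endoplasmic reticulum, and the calcium they release triggers exocytosis of zymogen granules. A pump of the SERCA family refills the store, while STIM1 senses its emptying and opens ORAI1 channels in the plasma membrane. Secretin acts through a Gs-coupled receptor and cyclic AMP, best known for driving bicarbonate secretion by duct cells. Overstimulation of these receptors and a sustained rise of cytosolic calcium are well-studied features of experimental pancreatitis.

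Libraries held 14453584 to 18961353 counts, and the tissue label was checked against marker genes. Of 14 acinar markers in the table, every one was called lower in AP, and together they took 44.1% to 46.6% of the named counts in controls, 0.796% and 0.876% in AP replicates 1 and 2 and 5.65% in AP replicate 3. Macrophage markers were called higher in 11 of 11 cases, with summed levels of 181 to 222 normalised CPM (counts per 1000000) in controls and 5600 to 5646 in AP. The duct markers, of which 9 were tested, were called higher in 3 cases and lower in 2. Levels are given as normalised CPM, that is, counts scaled with edgeR's trimmed mean of M values (TMM), so that a fold change is measured against the middle of all genes tested. With library totals in place of TMM the median log2 fold change of all tested genes moved by 2.18, and directions that turn with that choice are named. In bulk tissue, fewer cells of a type and less RNA per cell cannot be told apart.

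Promoter sequences of the members show what lies at the start of the genes whose transcripts fell or rose. The RefSeq promoter table (build GRCr8, which differs from the build of the counts) covers 250 bases before to 50 bases after the start site and held 9 of the 10 members, with no entry for Cckar. The E-box hexamers CAGCTG and CACCTG are sequences to which the acinar factors PTF1A and BHLHA15 can bind, and at least 1 was found, on either strand, in 4 of the 9 promoters (Chrm3, Sctr, Itpr2 and Stim1) and in 30.8% of the 33469 promoters of the table. CAGCTG alone was in 15.1% and CACCTG in 18.8% of all promoters, and the hexamers share no overlapping match in those printed. Of 2 further motifs, TTTCCC occurred in Chrm1 only (25.1% of all promoters) and CAAGGTCA, bound by NR5A2, in none of the 9 (1.5% of all). Among members called lower, Chrm3, Sctr and Itpr2 hold at least 1 hexamer, and Itpr1 and Itpr3 hold neither. Of those not called, Stim1 holds 1 and Atp2a2 neither, so the hexamers did not sort the members by call. The promoters of Chrm3 and Sctr, receptor genes called lower with TMM (Sctr was called higher with library totals), hold both hexamers. They are shown beside that of Orai1, the gene that rose, which holds neither. Each is given 5′ to 3′ as the table lists it, and capitals mark the hexamers.
Chrm3, chr17:64696677-64696976, plus strand: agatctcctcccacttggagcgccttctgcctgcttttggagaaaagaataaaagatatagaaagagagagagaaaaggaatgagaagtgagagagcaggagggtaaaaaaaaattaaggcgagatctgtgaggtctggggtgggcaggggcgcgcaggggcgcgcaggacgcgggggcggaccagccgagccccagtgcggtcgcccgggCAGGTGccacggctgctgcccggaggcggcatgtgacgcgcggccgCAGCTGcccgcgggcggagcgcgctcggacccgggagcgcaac
Sctr, chr13:33680377-33680676, plus strand: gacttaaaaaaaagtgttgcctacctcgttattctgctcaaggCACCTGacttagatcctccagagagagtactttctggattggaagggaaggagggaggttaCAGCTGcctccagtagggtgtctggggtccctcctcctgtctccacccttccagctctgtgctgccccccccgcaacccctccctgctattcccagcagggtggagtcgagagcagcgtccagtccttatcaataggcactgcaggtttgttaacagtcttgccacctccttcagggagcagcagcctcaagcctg
Orai1, chr12:39208981-39209280, minus strand: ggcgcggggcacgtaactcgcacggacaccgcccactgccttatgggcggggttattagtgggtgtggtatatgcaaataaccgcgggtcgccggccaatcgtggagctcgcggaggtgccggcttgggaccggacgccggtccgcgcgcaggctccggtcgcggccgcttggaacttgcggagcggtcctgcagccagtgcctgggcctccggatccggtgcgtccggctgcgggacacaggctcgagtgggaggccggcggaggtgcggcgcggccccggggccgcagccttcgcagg
Counted from the start site as 1, with bases before it negative, the hexamers begin at -39 and 8 in Chrm3 and at -207 and -146 in Sctr. A match describes these letters and does not show binding.

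Transcripts of Cckar and Chrm3 fell most, those of Sctr and of the IP3 receptors fell by less, and those of the refilling machinery ranged from no call to a rise. Of the 9 members that could be tested, 7 passed edgeR's quasi-likelihood test, beside 64.6% of all tested genes. In AP 6 were lower and 1 was higher, where 30.5% of the 13240 tested genes were called lower and 34.1% higher. The groups did not overlap in 7 of the 9, against 70.9% of all tested genes. The median log2 fold change was -0.90 over the 9 members and 0.07 over all tested genes. With library totals 6 of the 9 were called higher and 2 lower, beside 88.2% and 4.32% of all tested genes, and the member median was 1.29 against 2.25 for all. The tenth member, Chrm1, which encodes the M1 muscarinic receptor, had 0 counts in all 6 libraries, which allows up to 3 counts, or 0.372 to 0.482 normalised CPM in the control libraries and 0.0740 to 0.0883 in the AP libraries.

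**Figure D1:**
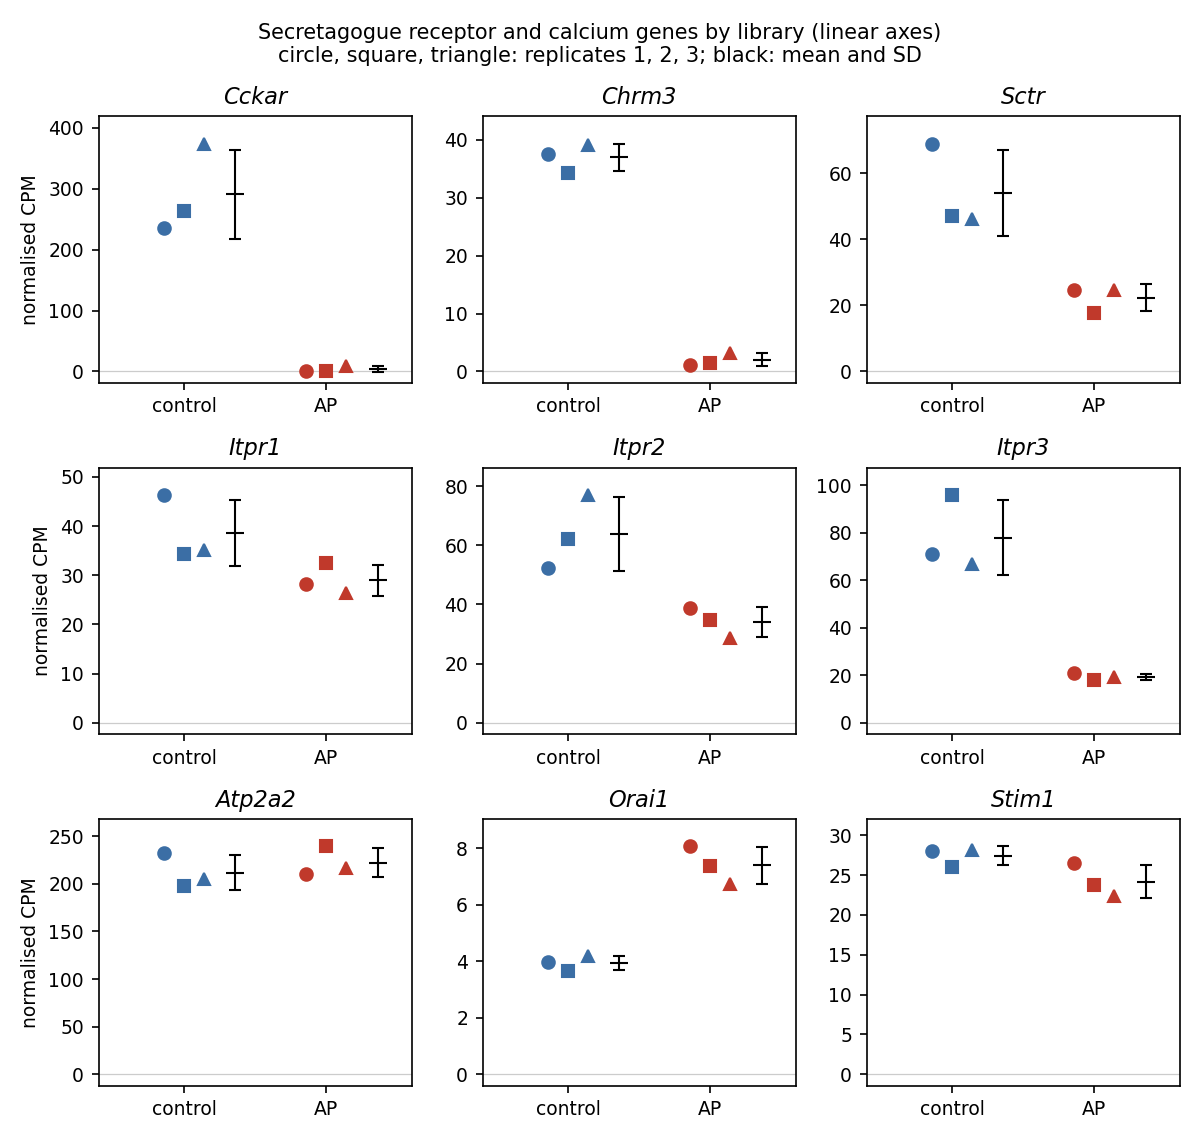
Normalised CPM of the 9 tested members in each library (linear axes), with controls in blue and AP in red; symbols mark replicates 1 to 3 and black bars the mean and SD (n = 3 per group). Cckar and Chrm3 lie near 0 in AP, Orai1 lies higher in AP than in controls, and the groups overlap for Atp2a2 and Stim1.

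Cckar, the cholecystokinin receptor gene, was the member with the largest difference. It stood at 235, 263 and 374 normalised CPM in control replicates 1 to 3 and at 0.838, 0.920 and 9.80 in AP replicates 1 to 3. The AP values rest on 34, 37 and 333 counts, so AP replicate 3 kept more than the other AP libraries and still lay far below every control. The mean went from 291 ± 73.6 to 3.85 ± 5.15 (SD, n = 3 each), a 76.5-fold fall in the fit (log2 fold change -6.26 ± 0.952 SE, edgeR adjusted p = 0.000517). The log2 fold change was -8.36 without AP replicate 3 and -4.14 with library totals.

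Set against the acinar markers of the same library, Cckar did not stand apart between the groups. This ratio needs no scaling between libraries, and it was chosen with the values known. For every 1000000 counts of the 14 acinar markers, there were 250, 268 and 375 Cckar counts in the controls and 236, 226 and 346 in AP replicates 1 to 3. The groups overlapped, with means of 298 ± 67.7 and 269 ± 66.7 (SD, n = 3 each; two-sided exact permutation p = 0.5). AP replicate 3, the AP library with the most acinar marker counts, thus also had the most Cckar counts. The other 8 tested members were higher per acinar marker count in all 3 AP libraries than in any control. Ratios of means ran from 7.25-fold for Chrm3 to 355-fold for Orai1 (exact permutation p = 0.1 for each, the smallest that 3 against 3 samples allow). The marker sum itself fell, so any gene that fell by less comes out higher by this ratio. Atp2a2, with a log2 fold change of 0.07 under TMM, came out 192-fold higher. The share of all tested genes with such a rise was not computed, so no conclusion about the 8 members is drawn. The acinar marker sum is made up mostly of digestive enzyme transcripts, so these ratios describe the members relative to those transcripts.

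**Figure D2:**
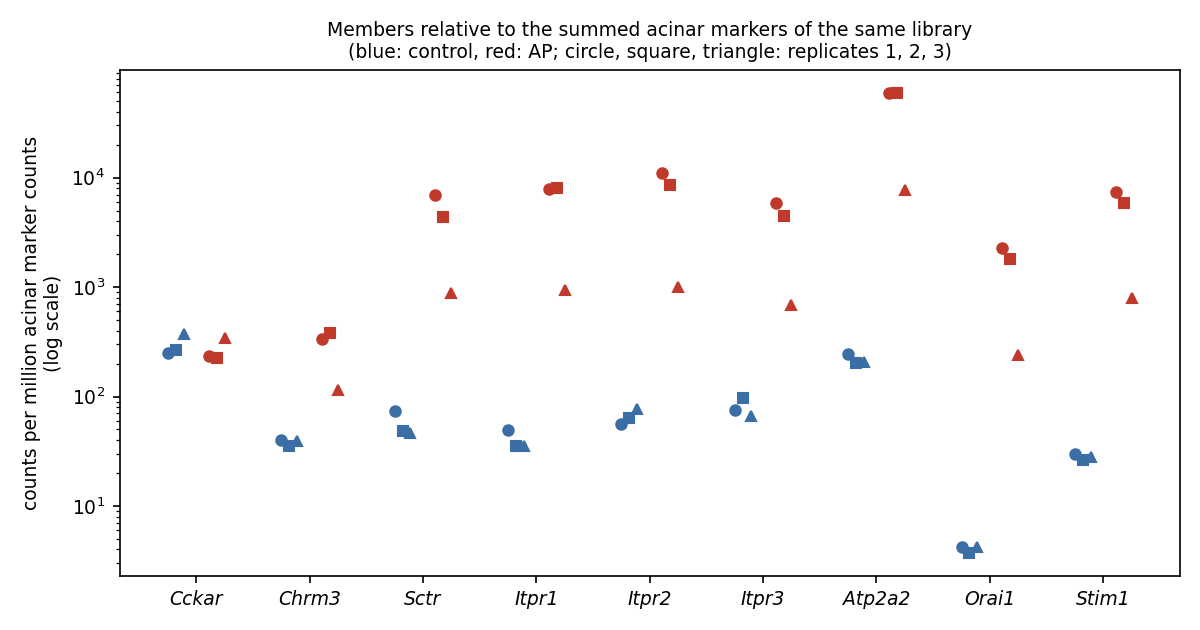
Counts of each tested member per 1000000 acinar marker counts of the same library (log axis), controls in blue and AP in red, with symbols for replicates 1 to 3. Only for Cckar do the groups overlap, and AP replicate 3 lies below the other AP libraries for every other member. The marker sum fell in AP, so a gene that fell by less lies higher in AP.

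Chrm3, which encodes the M3 muscarinic receptor, the main acetylcholine receptor of acinar cells, fell as well. It was at 37.5, 34.4 and 39.1 normalised CPM in the controls and at 1.18, 1.54 and 3.27 in AP replicates 1 to 3. The control libraries lay close together and AP replicate 3 was again the highest of the AP libraries. The fall was 18.7-fold (log2 fold change -4.22 ± 0.347 SE, edgeR adjusted p = 1.54e-05) and remained a fall with library totals (-2.06, adjusted p = 0.000218).

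Sctr, the secretin receptor gene, fell by less, and its direction depends on the scaling. It was at 68.9, 47.0 and 46.1 normalised CPM in controls and 24.7, 17.7 and 24.7 in AP, with no overlap. The log2 fold change was -1.27 ± 0.201 SE (2.42-fold lower, edgeR adjusted p = 0.00064), but 0.90 (adjusted p = 0.0021) with library totals, since raw counts went from between 287 and 555 to between 711 and 1000. Among duct markers, the chloride channel gene Cftr also fell (-1.12 ± 0.161 on the log2 scale, adjusted p = 0.000367), with a value of 1.06 under library totals, whereas the keratin gene Krt7 rose (3.88 ± 0.227, adjusted p = 2.81e-06) and Sox9, a duct transcription factor gene, rose (1.06 ± 0.344, adjusted p = 0.0243). The part of duct cells in the Sctr value was not tested.

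Other receptor genes that act on secretory cells gave no common direction. Of 13 listed, 12 were in the table and 5 had enough counts to be tested. Of these 2 rose and 1 fell, beside 34.1% called higher and 30.5% lower over all tested genes. With library totals 4 were higher and 1 lower, beside 88.2% and 4.32% of all tested genes. The bombesin receptor gene Grpr, a further Gq-coupled secretagogue receptor of rodent acinar cells, had 84, 89 and 69 counts in controls and 1, 0 and 5 in AP, a log2 fold change of -7.55 ± 0.584 SE (edgeR adjusted p = 1.12e-05, and -6.96 without AP replicate 2). Leaving out AP replicate 3 left a single AP count of Grpr, from which no size was taken. The protease-activated receptor gene F2rl1, whose product trypsin can cleave, rose from 1.66 ± 0.378 to 7.69 ± 3.66 normalised CPM (log2 fold change 2.23 ± 0.462, adjusted p = 0.0029, but limma-voom adjusted p = 0.0743). The nucleotide receptor gene P2ry2 rose from 4.40 ± 0.362 to 16.8 ± 2.01 (1.94 ± 0.181, adjusted p = 3.11e-05). Neither the gastrin receptor gene Cckbr nor the muscarinic gene Chrm5 had a count in any library.

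Transcripts of the ligands were scarce, and those of cholecystokinin and secretin, which come mainly from the gut, were counted in AP libraries but not in controls. Cck had 0 counts in all controls and 1, 3 and 8 in AP replicates 1 to 3, and Sct had 0 in controls and 6, 15 and 11 in AP. Levels in AP reached 0.235 normalised CPM for Cck and 0.373 for Sct, while the 0 of a control library allows up to 0.372 to 0.482, so the zeros do not show that the transcripts were absent from controls. Both were too low for the test, but Sct was called higher where it could enter, without a filter (edgeR adjusted p = 0.0428) and without AP replicate 1 (0.0253). Vip, the neuropeptide gene, was the only tested ligand gene of 5 in the table, with 3, 0 and 3 counts in controls and 14, 53 and 16 in AP (log2 fold change 1.37 ± 0.925 SE, edgeR adjusted p = 0.223, called higher with library totals, at 3.49).

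The G proteins and enzymes that act next included genes called in either direction. Of 15 tested genes of Gq signalling and receptor desensitisation, 10 rose and 3 fell, with a median log2 fold change of 1.18. Over all tested genes 34.1% were called higher and 30.5% lower. With library totals 13 of the 15 were higher and 1 lower, beside 88.2% and 4.32% of all tested genes. Plcb1, a phospholipase C that Gq activates, fell from 60.5 ± 7.47 to 13.0 ± 3.0 normalised CPM (log2 fold change -2.22 ± 0.191, edgeR adjusted p = 2.04e-05), and stood at -0.05 with no call with library totals. Gna15, the Gq-class subunit gene of blood cells, rose from 0.924 ± 0.249 to 23.7 ± 1.38 (4.64 ± 0.219, adjusted p = 1.25e-06), and Arrb2, an arrestin gene of receptor desensitisation, rose 5.42-fold (2.44 ± 0.181, adjusted p = 9.42e-06). Outside the naming rule, Gna14 (-3.11 ± 0.363, and -0.93 with library totals) and Gna11 (-1.16 ± 0.106, and 1.02) fell, and Plcb2, best known from leukocytes, rose from 0.718 ± 0.512 to 15.3 ± 7.70 normalised CPM (4.40 ± 0.558). The macrophage markers given above moved in the same direction as Gna15 and Plcb2, and their part was not tested.

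Of 13 tested genes of the cyclic AMP branch, which the secretin receptor uses, 5 rose and 5 fell. Over all tested genes 34.1% were called higher and 30.5% lower. With library totals 11 of the 13 were called higher and none lower, beside 88.2% and 4.32% of all tested genes. The adenylyl cyclase gene Adcy6 fell from 90.8 ± 5.35 to 24.2 ± 2.78 normalised CPM (log2 fold change -1.90 ± 0.124, edgeR adjusted p = 4.75e-06, and 0.28 without a call with library totals). Pde4d, a cyclic AMP phosphodiesterase gene, fell by 1.88 ± 0.144 on the log2 scale (adjusted p = 1.08e-05, and 0.30 without a call with library totals). Prkar2b, a regulatory subunit gene of protein kinase A, rose from 4.45 ± 1.26 to 15.6 ± 3.13 (1.82 ± 0.263, adjusted p = 0.00039).

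Among the IP3 receptor genes, which encode the store's release channels, Itpr3 fell the most. It was at 71.1, 95.8 and 66.7 normalised CPM in controls and at 20.8, 18.2 and 19.3 in AP. The AP libraries lay within a narrow band well below all controls, including AP replicate 3. The fall was 4.01-fold (log2 fold change -2.0 ± 0.158 SE, edgeR adjusted p = 1.24e-05), and with library totals the value was 0.17 (adjusted p = 0.347).

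Itpr2, the other isoform known as a main IP3 receptor of rodent acinar cells, fell from 52.4, 62.2 and 77.0 normalised CPM in controls to 38.9, 34.9 and 28.6 in AP. The groups did not overlap, although control replicate 1 and AP replicate 1 lay close. The log2 fold change was -0.90 ± 0.173 SE (1.87-fold lower, edgeR adjusted p = 0.00187), and 1.29 (adjusted p = 0.00019) with library totals.

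Itpr1, the isoform best known from brain and smooth muscle, was at 46.3, 34.2 and 35.2 normalised CPM in controls and 28.2, 32.5 and 26.4 in AP. Control replicate 2 and AP replicate 2 were almost level. Its fall (log2 fold change -0.41 ± 0.154 SE, edgeR adjusted p = 0.0429) was the weakest of the calls and ended with the DESeq2 Wald test (adjusted p = 0.0514), without a filter on low counts (0.0821) and without any of control replicates 1 and 3 or AP replicates 1 and 3 (0.167, 0.0505, 0.0999 and 0.114). With library totals it was at 1.77 (adjusted p = 8.04e-06).

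**Figure D3:**
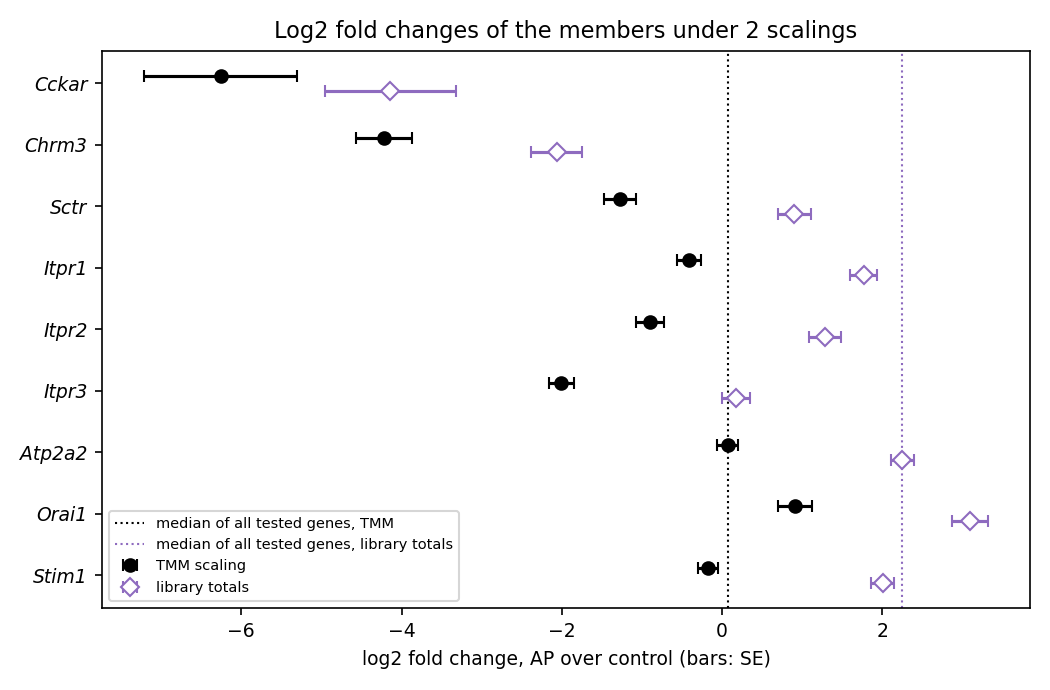
Log2 fold change of each tested member, AP over control, with TMM (filled circles) and with library totals (open diamonds); bars are standard errors and dotted lines the medians of all tested genes, 0.07 and 2.25. Cckar and Chrm3 lie below 0 with either scaling and Orai1 above 0 with either.

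In the make-up of the IP3 receptor counts, which no scaling between libraries affects, the shares of Itpr3 and Itpr1 did not overlap between the groups, although 3 against 3 samples cannot bring the exact test below 0.1. Of the counts of the 3 genes, Itpr3 took 41.9%, 49.8% and 37.3% in controls and 23.7%, 21.3% and 25.9% in AP replicates 1 to 3. Exact (Clopper-Pearson) 95% intervals for its share in the libraries spanned 34.4% to 52.4% in controls and 19.9% to 27.7% in AP. The mean share was 43.0% ± 6.35 in controls and 23.6% ± 2.34 in AP (SD, n = 3 each; two-sided exact permutation p = 0.1, the smallest possible, adjusted p = 0.111 over the 10 shares computed). The share of Itpr1 was 21.6% ± 5.01 in controls and 35.2% ± 2.99 in AP, with no overlap (exact p = 0.1). Its own level did not rise with TMM scaling. The share of Itpr2 overlapped between the groups, at 35.4% ± 6.65 and 41.2% ± 2.89 (exact p = 0.3). These are shares of reads and not of molecules, since the transcripts may differ in length.

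Atp2a2, which encodes the SERCA2 pump that returns calcium to the store, was not called. It was at 232, 198 and 205 normalised CPM in controls and 210, 239 and 217 in AP, so the groups overlapped. The log2 fold change of 0.07 ± 0.130 SE (edgeR adjusted p = 0.664) lay at the median of all tested genes, and with library totals the value was 2.25 (adjusted p = 6.42e-07), again at that median. Its relative Atp2a3, a SERCA pump gene also expressed in blood cells, rose from 10.6 ± 4.57 to 23.0 ± 0.292 normalised CPM (log2 fold change 1.10 ± 0.255, adjusted p = 0.00514). Atp2a2 took 95.3% ± 1.5 of the counts of this pair in controls and 90.6% ± 0.484 in AP, with no overlap (exact permutation p = 0.1).

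Orai1, the gene of the store-operated calcium channel, was the only member that rose. It was at 3.97, 3.66 and 4.18 normalised CPM in controls and 8.06, 7.39 and 6.74 in AP, with no overlap, from 32, 29 and 26 counts in controls and 327, 297 and 229 in AP. The rise was 1.88-fold (log2 fold change 0.91 ± 0.208 SE, edgeR adjusted p = 0.00483) and 3.09 on the log2 scale with library totals. Leukocytes use ORAI1 as well, and the macrophage markers rose in 11 of 11 cases. Their part in the Orai1 value was not tested.

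Stim1, the gene of the store's calcium sensor, was not called. It was at 28.1, 26.0 and 28.1 normalised CPM in controls and at 26.5, 23.7 and 22.4 in AP, so that AP replicate 1 overlapped the controls. The log2 fold change was -0.18 ± 0.122 SE (edgeR adjusted p = 0.228), and 2.00 (adjusted p = 1.33e-06) with library totals.

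Within the channel and sensor families the shares did not overlap between the groups either. Orai2 took 83.0% ± 1.02 of the ORAI counts in controls and 40.8% ± 2.45 in AP, while Orai1 took 4.21% ± 0.545 and 18.5% ± 0.650 and Orai3 12.7% ± 0.931 and 40.7% ± 1.81 (exact permutation p = 0.1 for each, the smallest possible). Orai2 itself fell from 78.4 ± 10.8 to 16.3 ± 2.12 normalised CPM (log2 fold change -2.26 ± 0.151, edgeR adjusted p = 5.46e-06), and stood at -0.08 without a call with library totals. Orai3 itself rose from 12.0 ± 1.38 to 16.3 ± 1.39 (0.44 ± 0.155, edgeR adjusted p = 0.0345). That call ended with limma-voom (adjusted p = 0.0543) and with the replicate number as a block (edgeR adjusted p = 0.0780). It also ended without control replicate 1 or 3 and without AP replicate 1 or 2. Shares within a family are bound together, so a smaller share of Orai2 leaves larger shares to Orai1 and Orai3. Stim1 took 36.5% ± 5.55 of the STIM counts in controls and 46.6% ± 3.23 in AP, with control replicate 1 at 42.8% next to AP replicate 3 at 42.9%.

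**Figure D4:**
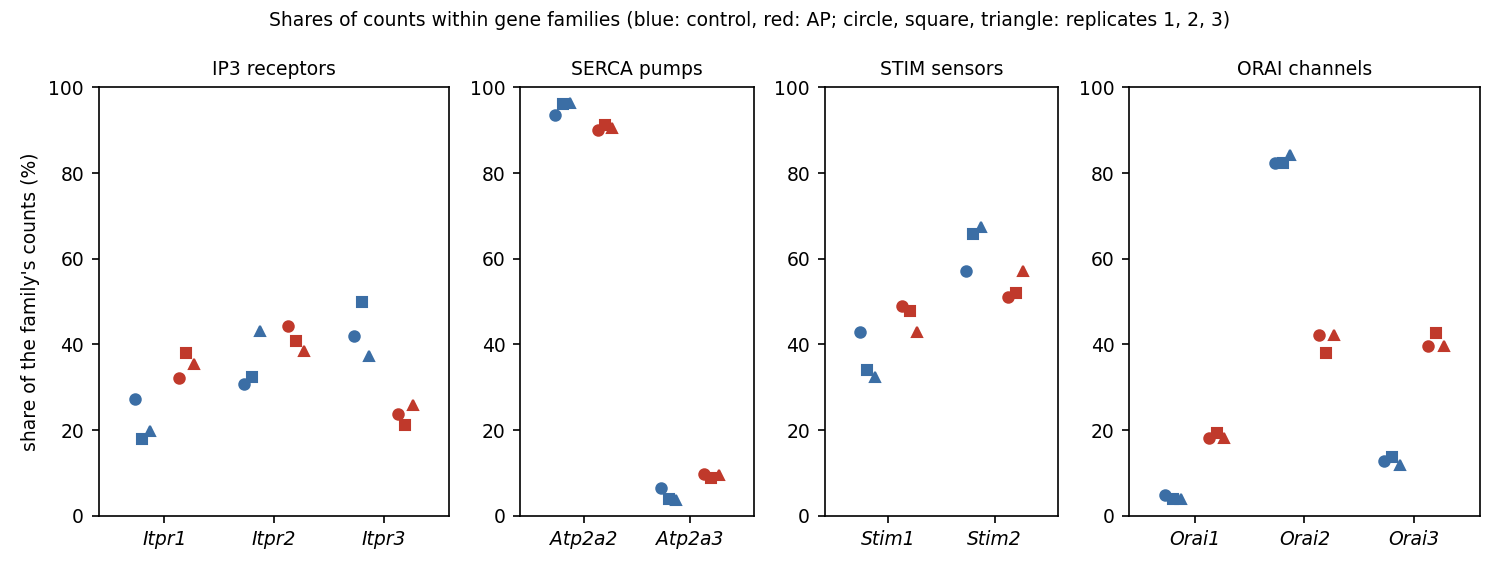
Share of each gene in the counts of its family in each library (%), controls in blue and AP in red, with symbols for replicates 1 to 3. Itpr3 and Orai2 take smaller shares in AP, and Itpr1, Orai1 and Orai3 larger shares; the groups overlap for Itpr2.

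Of 14 other tested genes of store-operated and plasma membrane calcium entry, 9 fell and 4 rose, where 30.5% of all tested genes were called lower and 34.1% higher. Their median log2 fold change was -1.01, and with library totals 8 were called higher and 2 lower, beside 88.2% and 4.32% of all tested genes. Saraf, which encodes an inhibitor of store-operated entry, fell from 219 ± 14.5 to 42.2 ± 5.25 normalised CPM (-2.38 ± 0.137, edgeR adjusted p = 2.65e-06, and -0.20 without a call with library totals). Piezo1, a mechanically gated cation channel gene, rose from 6.57 ± 1.76 to 66.7 ± 11.4 (3.34 ± 0.221, adjusted p = 5.09e-06). The 2 genes that were called lower with either scaling, both outside the naming rule, were Cracr2a, a regulator of ORAI channels (-4.21 ± 0.415, and -2.06 with library totals), and Homer2, a scaffold gene of acinar calcium signalling (-4.10 ± 0.300, and -1.93).

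Among 13 tested genes of calcium stores other than the members, 6 rose and 4 fell, beside 34.1% and 30.5% of all tested genes. With library totals the numbers were 10 and 0, beside 88.2% and 4.32% of all tested genes. The 4 that fell became 2 without control replicate 1, without control replicate 2 and with a filter of 50 counts. The calls that ended were those of the ryanodine receptor genes Ryr1 and Ryr2, both outside the naming rule, whose groups overlapped. With that filter these 2 genes were not tested, and without either control they were tested and not called. Without AP replicate 1 the calls of Ryr1 (edgeR adjusted p = 0.0568) and of Irag1, a gene that rose (0.0548), ended as well. Cd38, whose product makes calcium-releasing messengers and which leukocytes also carry, rose from 4.89 ± 1.74 to 119 ± 28.9 normalised CPM (log2 fold change 4.58 ± 0.288, edgeR adjusted p = 3.92e-06). Tmbim6, an endoplasmic reticulum calcium leak gene, fell from 861 ± 74.2 to 235 ± 14.7 (-1.87 ± 0.163, adjusted p = 2.1e-05, and 0.30 without a call with library totals). Erp44, an endoplasmic reticulum protein that can inhibit the type 1 IP3 receptor, fell by 1.46 ± 0.138 on the log2 scale (adjusted p = 3.36e-05), and rose by 0.72 with library totals.

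Of 8 listed genes of calcium extrusion and Golgi uptake, 6 were tested, and of these 5 rose and none fell, where 34.1% of all tested genes were called higher. The median log2 fold change of the 6 was 1.48, and with library totals all 6 were called higher, beside 88.2% of all tested genes. Atp2b3, a plasma membrane pump gene, was not called (log2 fold change 0.91 ± 0.595 SE, edgeR adjusted p = 0.208). Atp2c2, a Golgi calcium pump gene outside the naming rule, had too few counts to be tested and was lower in AP without overlap, at 1.59 ± 0.657 normalised CPM in controls and 0.220 ± 0.0385 in AP. It entered the test and was called lower without a filter, with the DESeq2 Wald test and without control replicate 1 or any of AP replicates 1, 2 and 3 (adjusted p of 0.00258, 2.45e-05, 0.00128, 0.00576, 0.00528 and 0.00362), so that the count of genes that fell was then 1. The sodium-calcium exchanger gene Slc8a1 rose from 5.17 ± 0.956 to 83.0 ± 12.8 normalised CPM (4.01 ± 0.192, edgeR adjusted p = 1.32e-06), the mitochondrial sodium-calcium exchanger gene Slc8b1 by 2.38 ± 0.260 on the log2 scale (adjusted p = 7.41e-05) and the plasma membrane pump gene Atp2b4 by 1.67 ± 0.172 (adjusted p = 5.31e-05). Stellate cell and fibroblast markers rose in 9 of 10 cases and macrophage markers in 11 of 11, and their part in these rises was not tested.

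Of 11 tested mitochondrial calcium genes, 3 rose and 4 fell, beside 34.1% and 30.5% of all tested genes. With library totals the numbers were 10 and 0, beside 88.2% and 4.32% of all tested genes. The 4 that fell became 2 with the DESeq2 Wald test, without a filter, and without control replicate 1 or 2 or AP replicate 1 or 2. There the calls of Letm1 and Smdt1, both outside the naming rule, ended. Mcu, the pore of the mitochondrial calcium uniporter, rose by 0.64 ± 0.152 on the log2 scale (edgeR adjusted p = 0.00575). Its inhibitory paralog gene Mcub had 1, 0 and 3 counts in controls and 283, 186 and 125 in AP (4.77 ± 0.667, adjusted p = 0.000318, and 4.15 without control replicate 2), and no size is given without control replicate 3, which leaves 1 control count. Vdac1, an outer membrane channel gene, fell by 0.69 ± 0.119 (adjusted p = 0.00104), and rose by 1.48 with library totals.

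Of 22 tested genes of calcium decoders, 10 rose and 4 fell, with a median log2 fold change of 0.63. Over all tested genes 34.1% were called higher and 30.5% lower. With library totals 20 of the 22 were higher and 1 lower, beside 88.2% and 4.32% of all tested genes. The protein kinase C genes Prkcb, prominent in leukocytes, and Prkcd, whose product is activated in acinar cells by cholecystokinin, rose by 3.20 ± 0.177 and 2.51 ± 0.216 on the log2 scale (edgeR adjusted p = 2.25e-06 and 2.02e-05). Prkd1, a protein kinase D gene downstream of these kinases, fell from 33.2 ± 13.0 to 2.88 ± 0.0492 normalised CPM (-3.53 ± 0.273, adjusted p = 1.13e-05, and -1.35 with library totals).

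**Figure D5:**
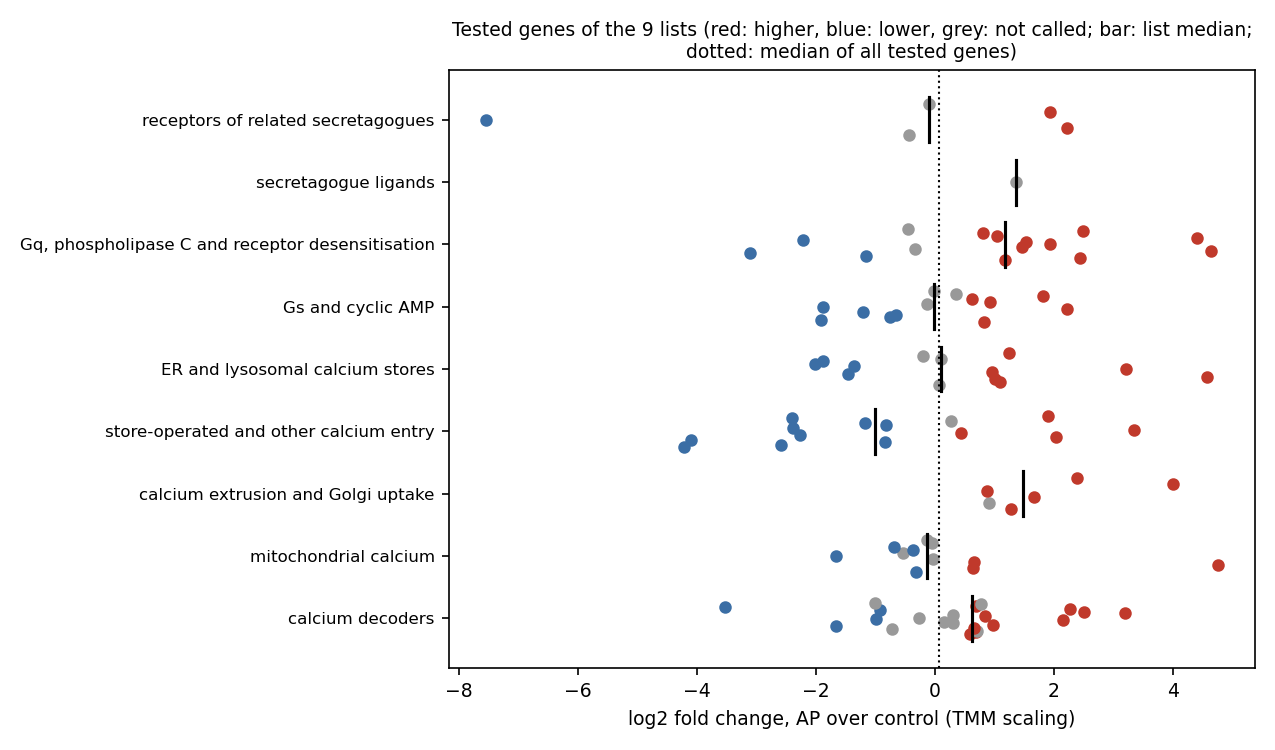
Log2 fold change (TMM scaling) of every tested gene in the 9 lists of the pathway, coloured by call, with a bar at each list's median and a dotted line at the median of all tested genes, 0.07. The calcium entry list has its median at -1.01 and the extrusion list at 1.48.

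The genes whose levels over the 6 libraries were most like those of the members differed from member to member. Likeness was Pearson's r of log2 normalised CPM + 1 among 10047 candidate genes, and no chance level was computed for it. For members whose groups lay well apart, it is dominated by the difference between the groups, which all 6 samples share. For Cckar the most alike genes were Bhlha15, an acinar transcription factor gene, the lipase gene Pnlip and the chymotrypsin gene Ctrc (r of 0.9997, 0.9994 and 0.9991). Their log2 fold changes were -6.04 ± 0.959, -6.67 ± 1.28 and -6.43 ± 0.994 (-8.08, -8.66 and -7.99 without AP replicate 3). For Chrm3 they were Eif5b, Qsox2 and Atl2 (r of 0.9993 to 0.9995), for Sctr they were Srebf1, Trmt10b and Hk1 (0.9964 to 0.9976), and for Itpr3 they included Fundc2 and Rps3 (0.9992 and 0.9989). Orai1 was most like Git1, Tgfbi and Bmp2k (0.9986 to 0.9997), Itpr2 most like Bace1, Ttll5 and Pcmtd2 (0.9955 to 0.9964), and Itpr1 most like Focad, Capn6 and Mrrf (0.9901 to 0.9917). The r does not measure the size of a change. Git1, Tgfbi and Bmp2k had log2 fold changes of 0.32, 4.27 and 2.64, beside 0.91 for Orai1. The lowest r values belonged to Stim1, with Mettl7a, Cyyr1 and Pdgfd (0.9737 to 0.9883), and to Atp2a2, with Cpsf3, Tec and Aldh1a3 (0.9513 to 0.9675), the pair of members that were not called.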

How the data were processed

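The table the authors deposited holds raw read counts for each gene as whole numbers. Per the submitters' processing notes the tools were STAR, featureCounts, FastQC and DESeq2 and the rat build was mRatBN7.2. The sources used here give no versions, annotation release, strand setting or rule for reads with several matches, so reads of similar paralogs and of overlapping genes may be split or mixed. Of 23096 rows, 3110 had no gene name and were left out (5.48% to 7.69% of control counts and 1.41% to 2.10% of AP counts). Rows sharing a symbol were summed (185 symbols).

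AP was compared with control by the quasi-likelihood test of edgeR 4.0.16 (R 4.3.3) on all genes, after TMM scaling and the package's default low-count filter, with no covariate and Benjamini-Hochberg adjustment over all tested genes, with calls at an adjusted p of 0.05. The fit was checked on simulated counts in which few genes changed and as many rose as fell. That check does not bear on the choice of scaling between AP and control. TMM factors averaged 0.470 in controls and 2.13 in AP. Standard errors were taken from each log2 fold change and its F statistic. Shares and ratios were compared with two-sided exact permutation tests. Intervals and floors (3 counts) cover counting error only. No library was a repeat of another (chi-square per gene of 39.5 or more between replicates). The labels do not say that samples are separate animals, and p-values then reflect only the spread among these libraries. The alternatives were library totals, upper quartile scaling, size factors of DESeq2 1.42.0, TMM without acinar genes, the DESeq2 Wald test, limma-voom (limma 3.58.1), no filter, 50 counts in 3 samples, the replicate block and leaving out each library.

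The members and lists were chosen with earlier results of these data known. Named genes were the 10 members, the 3 genes of lowest p in each of 9 lists, and the 3 genes most like each tested member with a mean logCPM of at least 2. This rule also takes a gene that is not reported here. Further names were picked with their values in view.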

Additional observations from a re-analysis of the deposited data

How the results depend on the processing

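Across scalings other than library totals, the other tests, the other filters and the fits without 1 library, every member kept its direction, and of the calls only that of Itpr1 ended. With library totals 11680 genes were called higher and 572 lower, and of the members 6 were higher and 2 lower. Values that changed sign with library totals were those of Sctr (0.90), Itpr1 (1.77), Itpr2 (1.29), Itpr3 (0.17) and Stim1 (2.00), and Atp2a2 became a call (2.25). The log2 fold change of Itpr1 was -0.41 with the DESeq2 Wald test, -0.35 without a filter and -0.40 with the replicate block, none of them called, and ran from -0.50 to -0.25 without 1 library.

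Among the other named genes, signs turned with library totals for Adcy6 (0.28), Pde4d (0.30), Tmbim6 (0.30), Erp44 (0.72), Vdac1 (1.48), Eif5b (0.35), Qsox2 (0.39), Atl2 (0.093), Srebf1 (0.75), Trmt10b (1.17), Hk1 (1.24), Focad (1.73), Capn6 (0.48), Mrrf (1.88), Bace1 (1.09), Ttll5 (1.18), Pcmtd2 (1.02), Fundc2 (0.40), Rps3 (0.98), Mettl7a (1.69), Cyyr1 (1.73) and Pdgfd (1.07). Aldh1a3 ran from -0.31 to 1.07 without 1 library. Cckar was at -7.27 with limma-voom and -7.07 with the replicate block.

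Deviations of same-numbered libraries correlated at -0.06, 0.02 and -0.15, and those of differently numbered libraries at -0.12 to 0.16. No pairing by replicate number was seen, but so few libraries cannot exclude one. The replicate block called 7904 genes, 4200 higher and 3704 lower, and 6 of the members. Shares by coding length were not run, as no length was used here. Depth limits Chrm1 and the ligand genes, which apart from Vip had too few counts to test.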
